A study of Mus musculus with 32 samples.

Results

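The data described here are the open-chromatin peaks next to 6 genes of 1 regulatory circuit in mouse blood stem and progenitor cells. These are the E protein genes Tcf3, Tcf4 and Tcf12, and the genes of their inhibitors, Id1, Id2 and Id3. A peak belonged to a gene when that gene was the nearest protein-coding gene model of GRCm38 and lay within 50 kb. By this rule 836 of the 1054860 peaks in 16 deposited peak lists belonged to the 6 genes. The farthest lay 47.6 kb from its gene, at Id2, and the nearest merged interval that the distance left out lay 58.0 kb from Tcf12. The link rests on distance alone, and a region may act on another gene.

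The peaks came from ATAC-seq, in which a transposase cuts accessible DNA, on bone marrow cells sorted as haematopoietic stem and progenitor cells (HSPCs; negative for lineage markers, positive for cKit and Sca1). Lethally irradiated C57BL/6J recipients (CD45.2) had received 200000 test marrow cells together with 800000 wild-type marrow cells carrying CD45.1 and CD45.2. In the AF9-experienced groups the test marrow (CD45.1) was homozygous for hMLL-AF9, a human leukaemia fusion gene under doxycycline control, and for rtTA, the doxycycline-dependent activator. In the naive groups it was homozygous for rtTA only and lacked hMLL-AF9. Doxycycline began 6 to 8 weeks later, lasted 5 weeks and was followed by 4 weeks without it, to model leukaemia and its remission. Whether the naive groups received it is not stated in the sources used here. The last step was an injection of PBS or of LPS, lipopolysaccharide from bacterial walls, 24 hours before the cells were taken. The sorted HSPCs carried the markers of the wild-type donor marrow, so the fusion gene was not in the cells measured, and every group had been irradiated and transplanted. Doses and ages of the mice are not given in the sources used here. Each biological replicate had 1 peak list. Naive mice gave 4 lists after PBS and 3 after LPS, and AF9-experienced mice gave 4 and 5.

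E proteins are basic helix-loop-helix transcription factors that bind E-box DNA as dimers, and they drive genes of the B and T lineages. Id proteins also have a helix-loop-helix but no basic DNA-binding region, so an E protein paired with an Id protein cannot bind DNA. In blood, Tcf3 is known for early B cell development, Tcf4 for plasmacytoid dendritic cells and Tcf12 for T cell development. Id1 is known as a target of BMP signals and of blood cytokines, Id2 for innate lymphoid and natural killer cells, and Id3 as a gene induced by antigen receptor signals.

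The promoters of Id2, Id3 and Tcf12 are shown because each overlaps a merged interval at the gene end that held a peak in every list. The peak of a given list need not cover the printed bases. They are the bases just before the gene model, from RefSeq (GRCm38.p6), written 5′ to 3′ on the gene's own strand. Capitals mark E-boxes, the letters CANNTG, which read alike on both strands.
Id2 promoter, chr12:25096093-25096342, minus strand: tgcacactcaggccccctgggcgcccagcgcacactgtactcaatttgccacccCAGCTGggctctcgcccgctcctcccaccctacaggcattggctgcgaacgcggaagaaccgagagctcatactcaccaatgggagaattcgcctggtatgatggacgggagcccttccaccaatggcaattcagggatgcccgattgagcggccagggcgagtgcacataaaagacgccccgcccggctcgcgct
Id3 promoter, chr4:136143572-136143821, plus strand: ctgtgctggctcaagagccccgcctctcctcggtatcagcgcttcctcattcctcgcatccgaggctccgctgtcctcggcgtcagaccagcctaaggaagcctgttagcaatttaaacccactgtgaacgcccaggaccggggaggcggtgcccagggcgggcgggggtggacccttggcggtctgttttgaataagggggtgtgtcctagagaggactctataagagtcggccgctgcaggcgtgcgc
Tcf12 promoter, chr9:72111894-72112069, minus strand: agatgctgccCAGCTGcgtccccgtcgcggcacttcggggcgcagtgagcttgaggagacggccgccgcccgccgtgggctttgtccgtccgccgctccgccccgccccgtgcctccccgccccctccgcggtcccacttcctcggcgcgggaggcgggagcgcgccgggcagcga
The Id2 stretch holds 1 E-box, of the form CAGCTG, and the Tcf12 stretch also holds 1 CAGCTG, while the Id3 stretch holds 0. Over all 32851 RefSeq promoter windows of 300 bases, searched on both strands, 72.3% held a CANNTG and 16.3% a CAGCTG, which is 1 form of CANNTG. The E-box form CACCTG was in 20.2% of the windows and in none of the 3 stretches. The letters GGCGCC, known from BMP response elements, occurred once in the Id2 stretch and in 11.9% of all windows, and the AP-1 letters TGANTCA were in 7.81% of all windows and in none of the 3 stretches. The Tcf3 window, which lies inside a longer gene model and is not printed, held 1 CANNTG that was not a CAGCTG. Tcf12 has further windows inside its gene model, also not printed. That at chr9:72111152-72111451 held 1 TGANTCA and 2 CANNTG, and that at chr9:71896047-71896346 held 1 CANNTG. A match describes these letters and is not a binding site.

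The lists held 19448 to 88816 peaks. To make them alike in length, only the 19100 autosomal peaks with the highest deposited -log10 p were kept in each, as many as the shortest list allowed. Overlapping peaks were merged, which gave 31846 regions. A region's value is the percentile rank of its peak in a list, where 100 is the strongest and 0 means no peak among the 19100. The 6 genes had 28 such regions: 7 at Tcf4, 6 at Tcf12, 5 at Id2, 4 at Id1, 4 at Id3 and 2 at Tcf3. A peak in at least 3 lists was required for testing, which 20 of the 28 and 23554 of all regions met. The authors' fold enrichment, a peak's height over its own library's background, had a median of 5.07 to 19.4 in the shortened lists. The 3 shortest lists were the first of each PBS group (naive PBS 1 and AF9-experienced PBS 1) and naive LPS 3. Without them, the medians were 13.9 to 19.4 in 6 PBS lists and 9.16 to 13.6 in 7 LPS lists, which do not overlap. All 3 naive LPS lists had 2 peaks on chromosome Y, 3 of the other 13 had 1 to 3, and the rest had 0. HSPC marker genes had a peak at a gene end (within 1 kb of either end of the model) for 6 to 9 of 10 genes, Kit, Cd34, Flt3, Mecom and Meis1 in every list and Ly6a, the Sca1 gene, in none. In the 13 longer lists, neutrophil genes had one for 2 to 6 of 7 after PBS and 0 to 6 after LPS, and B cell genes for 2 to 3 of 4 after PBS and 0 to 2 after LPS. T and NK cell genes had one for 0 to 2 of 4 after PBS and 0 to 1 after LPS. For plasmacytoid dendritic cells, which are high in Tcf4, the counts were 3 to 4 of 6 after PBS and 2 to 5 after LPS, and for innate lymphoid cells, which are high in Id2, 4 to 5 of 5 after PBS and 3 to 4 after LPS. The part of other cell types in the results below was not tested. Fewer cells with an open region and a lower opening in each cell cannot be told apart in these sorted populations.

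Every one of the 6 genes had at least 1 peak in every list. Before shortening, a list held 4 to 28 peaks at Tcf4, 3 to 16 at Tcf12, 3 to 10 at Id2, 2 to 9 at Id3, 1 to 8 at Tcf3 and 1 to 7 at Id1. The gene models of Tcf4 and Tcf12 span 345 and 268 kb, and those of the Id genes 1.16 to 2.29 kb. Among the 28 regions, 7 lay at a gene end, 8 inside a gene model and 13 outside it. Of the 20 tested, 35.0% were at a gene end, against 42.5% of all tested regions.

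For each gene, the region with the highest mean over the 16 lists was taken, and these regions followed an order that most lists shared. Within a list, another region of the same gene could rank higher. The region just below Id1 and the region upstream of Id2 did so in some PBS lists, so the order is that of the regions taken. The first was the lower-coordinate end of Tcf4 at chr18:69344029-69344830, with a percentile rank of 93.8 ± 3.24 (SD, n = 16). The Tcf3 end at chr10:80433030-80434459 had 83.8 ± 5.84 and the Id2 end at chr12:25095353-25096727 had 77.2 ± 5.59. The Tcf12 end at chr9:72110698-72112526 had 60.3 ± 10.8, the Id3 end at chr4:136143579-136145037 had 57.2 ± 13.8, and the region 4.0 kb above Id1 had 42.0 ± 23.7. Tcf4 stood above Tcf3 in 15 of 16 lists, Tcf3 above Id2 in 13, and Id2 above Tcf12 in 15. Tcf12 and Id3 differed by 3.16 points, less than the SD of either, and Tcf12 was higher in 10 of 16 lists. Id3 stood above Id1 in 14. A rank compares peaks within a list and is not a level per gene length.

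**Figure D1:**
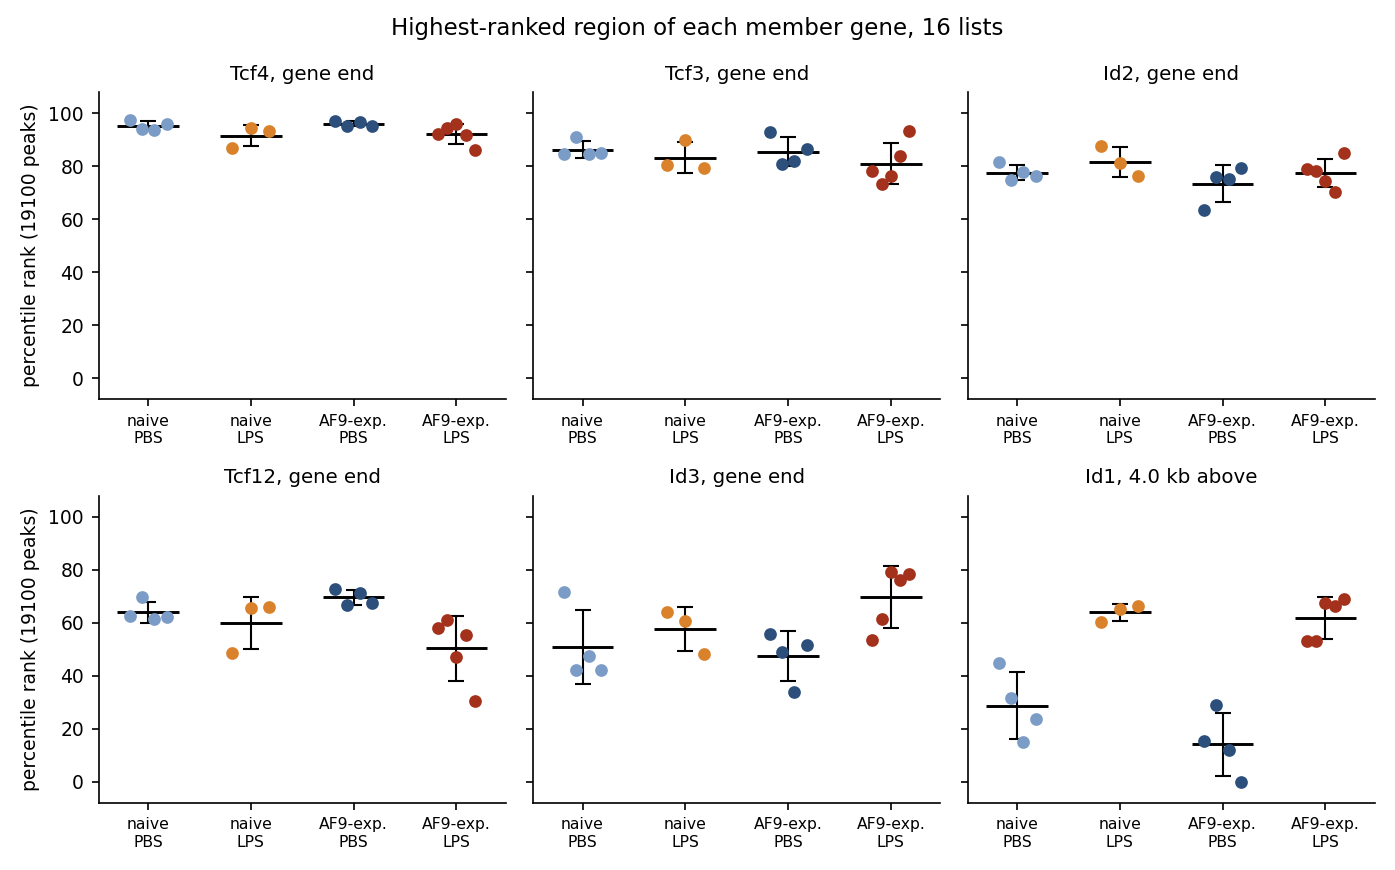
Percentile rank (y axis; 100 is the strongest of 19100 peaks, 0 is no peak among them) of each gene's region with the highest mean over the 16 lists, by group (x axis; naive mice with 4 PBS and 3 LPS lists, AF9-experienced mice with 4 and 5). Points are lists, bars are the mean and SD; the Tcf4 end lies above 86 in every list, and the LPS lists of the Id1 region lie between 53.2 and 69.1, above all PBS lists.

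The main question put to these regions was what LPS did in each background. Id1 held the largest difference of the 20 tested regions. A region of 1361 bp at chr2:152741409-152742769, intergenic and 4.0 kb beyond the higher-coordinate end of Id1, was low in the naive PBS lists, at 44.9, 31.6, 14.9 and 23.5. It was at 60.3, 65.2 and 66.2 in the naive LPS lists. In AF9-experienced mice it was at 15.3, 29.0, 12 and 0 after PBS and at 53.2, 53.2, 67.3, 66.4 and 69.1 after LPS. All 8 LPS lists lay above all 8 PBS lists. The group means were 28.7 ± 12.8 (SD, n = 4) against 63.9 ± 3.13 (n = 3) in naive and 14.1 ± 11.9 (n = 4) against 61.8 ± 7.96 (n = 5) in AF9-experienced mice. The region rose by 35.2 ± 8.29 points (SE; limma, adjusted p = 0.0197) in naive mice, by 47.8 ± 7.28 (adjusted p = 0.000408) in AF9-experienced mice and by 41.5 ± 5.52 (adjusted p = 2.96e-05) averaged over both. The 2 rises differed by 12.6 points (95% interval -10.3 to 35.5; adjusted p = 1.0). The authors' fold, which is not scaled between libraries, overlapped between treatments, at 3.49 to 9.48 after PBS and 6.49 to 10.0 after LPS. The naive call was lost when any of 5 naive lists was left out (adjusted p up to 0.0830), while the other 2 calls held without any 1 list. Ranking by fold ended the naive and the AF9-experienced call (adjusted p = 0.333 and 0.166), as did keeping only the 9550 strongest peaks of each list (0.138 and 0.0878). As percentiles of the full lists, the differences were 16.6 in naive mice, 20.2 in AF9-experienced mice and 18.4 averaged over both. None was called (adjusted p = 0.328 in AF9-experienced mice and 0.154 averaged).

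The lower-coordinate end of Id1 had 2 weaker regions. The first, chr2:152735915-152736632, overlaps the end of the model and was at 0 in all 8 PBS lists. After LPS it was at 13.4, 2.93 and 15.9 in naive mice, and at 1.03, 3.44, 0, 0 and 24.4 in AF9-experienced mice. It met the 3-list filter only through 6 LPS lists, so its p-value is conditioned on the difference it tests. The difference averaged over both backgrounds was 8.25 points (adjusted p = 0.124) and was not called. Before shortening, 3 PBS lists of each background had a peak in this region, so their 0s are peaks ranked below the strongest ones kept. The fold there was 4.07 to 6.01 after PBS and 4.03 to 6.92 after LPS. The second, 0.7 kb below the model, differed by -6.75 points (adjusted p = 0.607). It had 0 in naive PBS 1 and 53.0 to 64.6 in the other naive PBS lists.

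Id2, whose end near the start of transcription stayed within 63.3 to 87.6 in all lists, had its LPS difference farther upstream. The region at chr12:25118985-25119850, intergenic and 22.9 kb upstream of Id2, was at 85.1, 80.9, 83.3 and 75.5 in naive PBS lists and at 75.1, 36.3 and 46.4 in naive LPS lists. In AF9-experienced mice it was at 87.6, 80.1, 81.7 and 75.8 after PBS and at 51.8, 66.4, 75.4, 62.7 and 66.0 after LPS. The lowest PBS list (75.5) and the highest LPS list (75.4) nearly met, and the 2 treatments did not overlap. The region fell by 28.6 ± 6.6 points in naive mice (SE; adjusted p = 0.0171) and by 22.7 ± 4.39 averaged over both backgrounds (adjusted p = 0.00138). In AF9-experienced mice the difference was -16.8 ± 5.80 (adjusted p = 0.0985) and was not called, and the difference between the backgrounds was 11.8 points (95% interval -6.45 to 29.99; adjusted p = 1.0). The naive call was lost without naive LPS 2 (adjusted p = 0.140), naive LPS 3 (0.0758) or naive PBS 3 (0.0522). It was also lost when ranking by fold (-22.7; 0.188), with the 9550 strongest peaks of each list (-45.7; 0.0758), without the 3 shortest lists (-7.75; 0.0742) and when only the 2 naive groups were fitted (0.0710). As percentiles of the full lists, the differences were -9.56 in naive mice and -6.85 averaged (adjusted p = 0.334 for the latter), and neither was called. With the number of Y peaks per list as a covariate, the averaged difference was -17.7 (adjusted p = 0.0739) and the naive one -22.2 (0.237).

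The other Id2 regions were not called. The Id2 end differed by 4.04 points averaged over backgrounds (95% interval -1.62 to 9.70; adjusted p = 0.364). The region 2.5 kb upstream had a peak in 11 of 16 lists, at 0 to 33.9 after PBS and 0 to 33.7 after LPS, and that 1.1 kb downstream had a peak in 3.

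**Figure D2:**
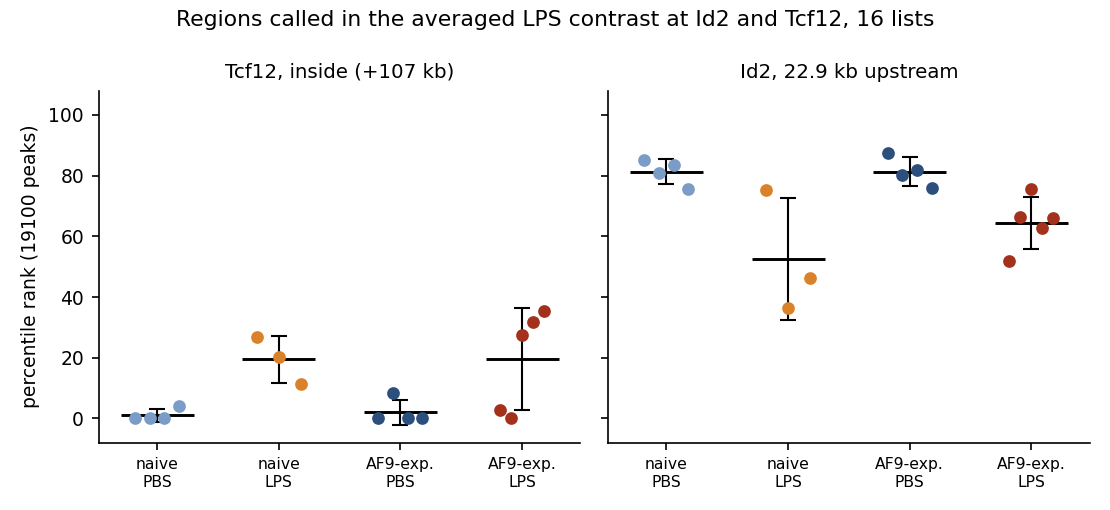
Percentile rank (y axis) of a region inside Tcf12 and of the region 22.9 kb upstream of Id2 by group (x axis; 4, 3, 4 and 5 lists). Points are lists, bars are the mean and SD; at Id2 the PBS lists lie at 75.5 to 87.6 and the LPS lists at 36.3 to 75.4, and at Tcf12 the PBS lists lie at 0 to 8.25 and the LPS lists at 0 to 35.5.

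At Id3 the end with the promoter printed above was at 71.4, 42.1, 47.4 and 42.2 in naive PBS lists and at 63.9, 60.7 and 48.3 in naive LPS lists. In AF9-experienced mice it was at 55.8, 49.0, 34.0 and 51.5 after PBS and at 53.3, 61.4, 79.2, 76.2 and 78.4 after LPS. The groups overlapped, and no contrast was called: the difference was 6.84 ± 7.86 in naive (adjusted p = 0.750), 22.1 ± 6.91 in AF9-experienced mice (0.0657) and 14.5 ± 5.23 averaged over both (0.0732). The Id3 regions 2.2 kb downstream and 3.2 kb upstream differed by -13.3 and 1.92 points in the averaged contrast (adjusted p = 0.252 and 0.609).

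Among the E protein genes, Tcf12, which encodes the HEB protein, held the calls. A region of 679 bp inside the gene, chr9:71951114-71951792, was at 0, 0, 0 and 4.17 in naive PBS lists and at 26.8, 20.3 and 11.4 in naive LPS lists. In AF9-experienced mice it was at 0, 8.25, 0 and 0 after PBS and at 2.91, 0, 27.5, 31.9 and 35.5 after LPS. It rose by 18.0 ± 5.38 points averaged over the backgrounds (adjusted p = 0.0302), with 18.5 in naive and 17.5 in AF9-experienced mice, neither called alone (adjusted p = 0.253 and 0.168). It met the 3-list filter only through LPS lists (7 above 0, against 2 PBS lists), so its p-value is conditioned on the difference it tests. A value of 0 here is either a peak that ranked below the 19100 strongest or no peak at all. Before shortening, 14 of the 16 lists had a peak in this region, with fold 12.4 to 20.1 after PBS and 5.51 to 14.0 after LPS. Of the 4 PBS lists of each background, 3 had one. The call was lost without any of 6 lists (adjusted p up to 0.0771): naive PBS 2 or 3, naive LPS 1 or 2, or AF9-experienced PBS 3 or 4. It was also lost when ranking by fold (adjusted p = 0.137) and as percentiles of the full lists (0.479). The same held for presence in the full lists (0.609) and with the replicate number as a block (0.0602).

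The Tcf12 end was at 72.8, 66.7, 71.2 and 67.3 in AF9-experienced PBS lists and at 58.1, 60.9, 47.0, 55.2 and 30.6 in AF9-experienced LPS lists, so the treatments did not overlap in that background. In naive mice it was at 62.3, 69.7, 61.3 and 62.1 after PBS and at 48.7, 65.5 and 65.8 after LPS, which overlapped. It fell by 19.2 ± 5.64 in AF9-experienced mice, at the edge of the threshold (adjusted p = 0.0496), and the difference in naive mice was -3.88 ± 6.42 (0.845). The difference between the backgrounds was -15.3 points (95% interval -33.0 to 2.42; adjusted p = 1.0). This call ended in 12 of 16 fits that left out 1 list, with adjusted p up to 0.138: naive PBS 2, 3 or 4, naive LPS 2 or 3, AF9-experienced PBS 1, 2, 3 or 4, or AF9-experienced LPS 3, 4 or 5. Ranked by fold, the difference was -0.697 (adjusted p = 0.977). The region 20.8 kb upstream of Tcf12 (chr9:72132678-72133891) had a single low list, AF9-experienced LPS 5 at 7.84, where the other 15 lay at 50.5 to 80.2; its AF9-experienced LPS difference was -20.1 ± 8.07 (adjusted p = 0.164).

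Tcf3, which encodes the E2A proteins, and Tcf4 had no called region. The Tcf3 end was at 80.8 to 92.8 after PBS and 73.2 to 93.1 after LPS, a difference of -3.77 points averaged over backgrounds (95% interval -9.33 to 1.80; adjusted p = 0.391). The region 12 kb upstream of Tcf3 was at 0 to 33.9 after PBS and 0 to 29.9 after LPS. The Tcf4 end was at 93.7 to 97.5 after PBS and 86.2 to 95.9 after LPS, a difference of -3.87 ± 1.48 (adjusted p = 0.0915). A region 323 kb into Tcf4 was at 0 in all 3 naive LPS lists and at 0 to 10.8 in AF9-experienced LPS lists, against 0 to 29.4 after PBS; its averaged difference was -11.6 (adjusted p = 0.0941).

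**Figure D3:**
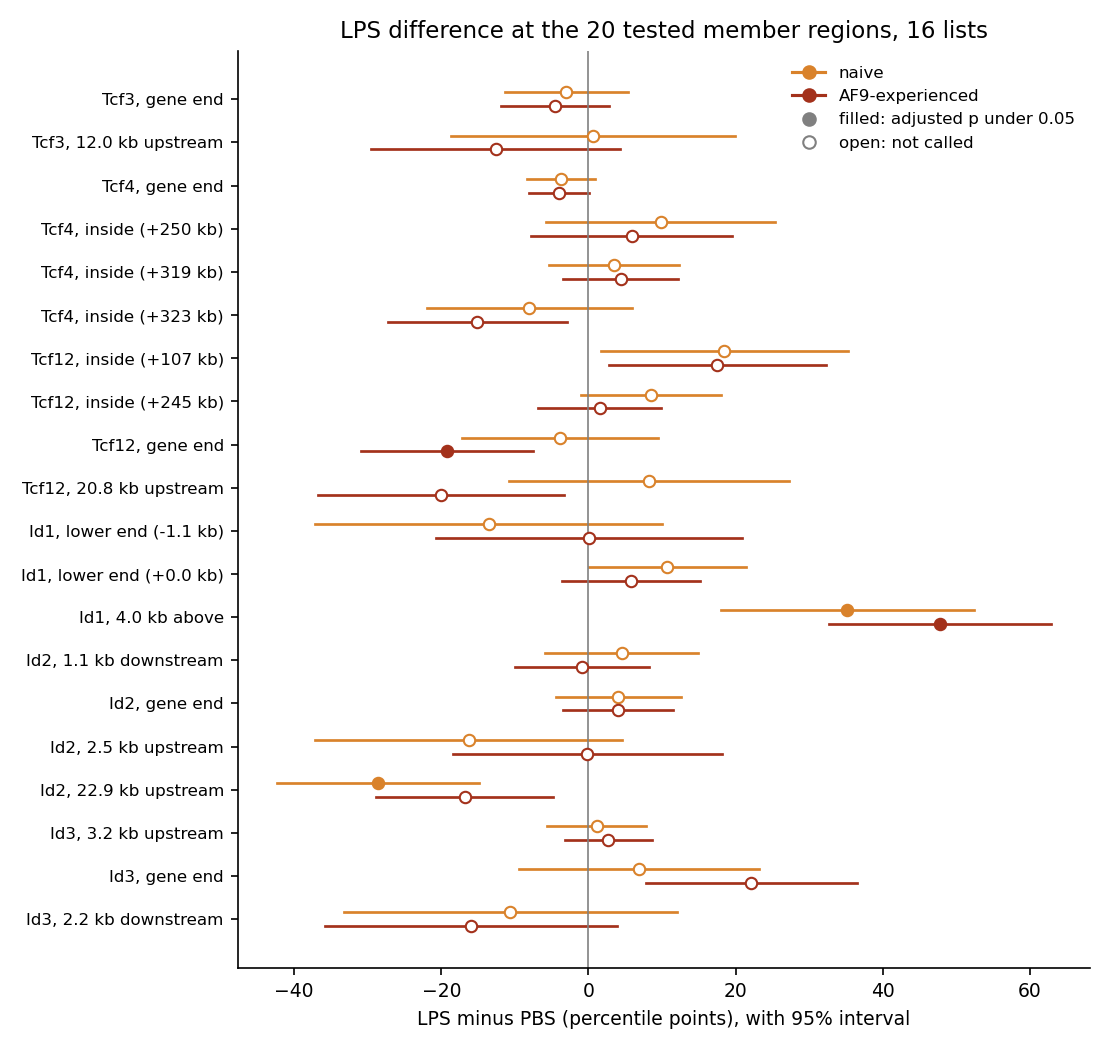
LPS minus PBS difference in percentile points (x axis) at each of the 20 tested regions (y axis), in naive and AF9-experienced mice, with 95% intervals from limma; filled points passed an adjusted p under 0.05 and distances for regions inside a gene or at the lower end of Id1 are from the model's lower-coordinate end. Most intervals span 0, the Id1 region 4.0 kb above the gene lies to the right in both backgrounds, and the Id2 region 22.9 kb upstream lies to the left.

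Counted over the 20 tested regions, LPS in naive mice gave 1 call upward and 1 downward, which is 5.0% each. Of all 23554 regions 2.0% were called higher and 1.22% lower in that contrast. In AF9-experienced mice the counts were again 1 and 1, against 3.44% higher and 1.74% lower among all regions. Averaged over the backgrounds, 2 were called higher and 1 lower, against 7.17% and 5.45% of all regions; 1 of these 3, inside Tcf12, met the filter through 1 treatment only. These shares rest on 1 or 2 regions and stand near the background. The median difference over the 20 was -0.984 points in the averaged contrast, where that of all regions was -0.110.

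Past exposure to MLL-AF9 cells gave no call at the 6 genes. Between AF9-experienced and naive mice after PBS, 0 of 20 regions were called and 0 had an unadjusted p under 0.05 (limma), against 0.0% of all regions called. After LPS 0 were called and 1 had an unadjusted p under 0.05, the region 20.8 kb upstream of Tcf12 (-22.2 points; adjusted p = 0.876), against 0.0127% of all regions called. Averaged over treatments 0 were called and 0 had such a p, against 0.0% of all regions. Differences ranged from -8.35 points at the Id1 region 4.0 kb above the gene (95% interval -19.8 to 3.09) to 7.34 at the region 323 kb into Tcf4 (-1.91 to 16.6). For the interaction, whether the LPS difference varied with background, 0 were called and 1 had an unadjusted p under 0.05, again upstream of Tcf12, against 0.0% of all regions.

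Leaving out the 3 shortest lists let the other 13 keep 59609 peaks each, which gave 83 regions at the 6 genes, 34 of them at Tcf4, and 56 tested, out of 70017 tested in all. A value of 0 then means no peak among the 59609 strongest. A region at 0 in nearly all lists of 1 treatment met the 3-list filter only through the other, so its p-values are conditioned on the difference they test; this held for 4 of the 11 regions called in the averaged contrast, 3 of 7 in AF9-experienced mice and 1 of 3 in naive mice. Naive mice then have 3 PBS and 2 LPS lists, and AF9-experienced mice 3 and 5. Averaged over backgrounds, LPS gave 5 regions called higher and 6 lower, 8.93% and 10.7% of the 56, beside 10.2% and 11.7% of all regions. In naive mice 1 was higher and 2 lower, beside 3.91% and 2.82% of all regions, and in AF9-experienced mice 4 were higher and 3 lower, beside 4.93% and 5.53%. The 5 regions called higher in the averaged contrast were 2 at Id1, 2 at Id3 and 1 inside Tcf12. The 6 called lower were 4 inside Tcf4, 1 upstream of Id2 and 1 upstream of Id3. In these 13 lists the median fold separates PBS from LPS without overlap, so treatment and median fold cannot be told apart. With median fold as a covariate, none of these 11 regions kept its call (adjusted p = 0.107 to 0.795), and the regions called among all fell from 15351 to 996. Their differences did not move alike. The difference went from 35.2 to 32.2 at the Id3 region 26.3 kb upstream, from -39.9 to -46.9 at that 42.8 kb upstream, from -28.6 to -47.4 and from -22.5 to -41.9 at the Tcf4 regions 53.1 and 165 kb into the gene, and from 19.6 to 28.8 inside Tcf12. It went from 14.4 to 8.67 and from 19.8 to 9.85 at the Id1 regions 4.0 kb above the gene and at its lower end, and from 6.93 to 1.91 at the Id3 end. At the Tcf4 regions 194 and 332 kb into the gene it went from -15.8 to -10.9 and from -32.8 to -27.5, and at the Id2 region from -6.24 to -5.58. In naive mice the calls 0.7 kb below Id1 and 42.8 kb upstream of Id3 were kept (adjusted p = 0.0412 and 0.0476). With the same covariate in the 16 lists, where median fold overlaps between treatments, the averaged difference was 37.2 at the Id1 region (adjusted p = 0.000162) and -24.1 at the Id2 region (0.0023), both called.

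At Id1 the region 4.0 kb above the gene was at 78.1, 72.7 and 75.5 in naive PBS lists, 87.3 and 88.8 in naive LPS lists, 77.3, 71.8 and 65.7 in AF9-experienced PBS lists and 85.0, 85.0, 89.5, 89.2 and 90.1 in AF9-experienced LPS lists. It rose by 12.6 ± 2.89 in naive (adjusted p = 0.0167), 16.2 ± 2.31 in AF9-experienced mice (0.000498) and 14.4 ± 1.85 averaged over both (5.75e-05). The naive call was lost without naive PBS 3, naive LPS 1 or naive LPS 2 (adjusted p up to 0.127). The region over the lower end of Id1 was at 35.0 to 63.9 in 6 PBS lists and at 63.1 to 75.8 in 7 LPS lists, overlapping through naive PBS 2. It rose by 19.8 ± 4.68 in the averaged contrast (adjusted p = 0.00617). The region 0.7 kb below the gene fell in naive mice, from 86.7 ± 1.86 (SD, n = 3) to 76.9 ± 2.77 (n = 2), by 9.87 points (adjusted p = 0.0327). Its AF9-experienced difference was 0.562 (0.890), and the difference between backgrounds was 10.4 points (adjusted p = 0.992). That naive call was lost without naive PBS 2 or 3 or naive LPS 1 or 2 (adjusted p up to 0.222), and ranking by fold turned the difference to 0.769 (adjusted p = 0.977).

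Id3 had 2 distal regions that moved in opposite directions. The region at chr4:136116680-136117564, intergenic and 26.3 kb upstream, was at 36.1, 31.6 and 40.9 in naive PBS lists and 66.1 and 57.3 in naive LPS lists. In AF9-experienced mice it was at 19.2, 33.6 and 11.6 after PBS and at 64.3, 61.2, 65.4, 71.7 and 68.8 after LPS, so all LPS lists lay above all PBS lists. It rose by 44.8 ± 6.74 in AF9-experienced mice (adjusted p = 0.000671) and by 35.2 ± 5.39 averaged over both (0.000251); the naive difference was 25.5 ± 8.42 (0.0758). In the full lists, the authors' -log10 p there overlapped between treatments, at 18.8 to 36.5 after PBS and 9.18 to 37.8 after LPS. These ranges include the short naive LPS list that the ranks above left out, and the median fold of the lists differed.

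The Id3 region at chr4:136100306-136101050, 42.8 kb upstream, was at 64.4, 50.8 and 33.9 in naive PBS lists and at 30.5, 37.5 and 25.5 in AF9-experienced PBS lists. It was at 0 in both naive LPS lists and at 5.29, 0, 0, 0 and 0 in AF9-experienced LPS lists. It fell by 49.7 ± 10.3 in naive (adjusted p = 0.0103), 30.1 ± 8.25 in AF9-experienced mice (0.0271) and 39.9 ± 6.6 averaged over both (0.000461). The region met the filter only through its 6 PBS lists, since 1 LPS list was above 0, and the p-values carry that limit. In the full lists, 6 of 8 PBS lists had a peak there, with fold 10.2 to 16.2, against 1 of 8 LPS lists, with fold 5.26. The 2 PBS lists without one are the 2 shortest PBS lists. The naive call was lost without naive LPS 1 or 2 (adjusted p up to 0.0777), and the AF9-experienced call without AF9-experienced PBS 2, 3 or 4 (up to 0.134). The Id3 end rose by 7.97 ± 1.86 in AF9-experienced mice (adjusted p = 0.0121) and by 6.93 ± 1.49 averaged over both (0.00328). It was at 78.8 to 84.5 after PBS and 85.0 to 93.3 after LPS, without overlap. Leaving out AF9-experienced PBS 3 ended that first call (adjusted p = 0.0931).

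**Figure D4:**
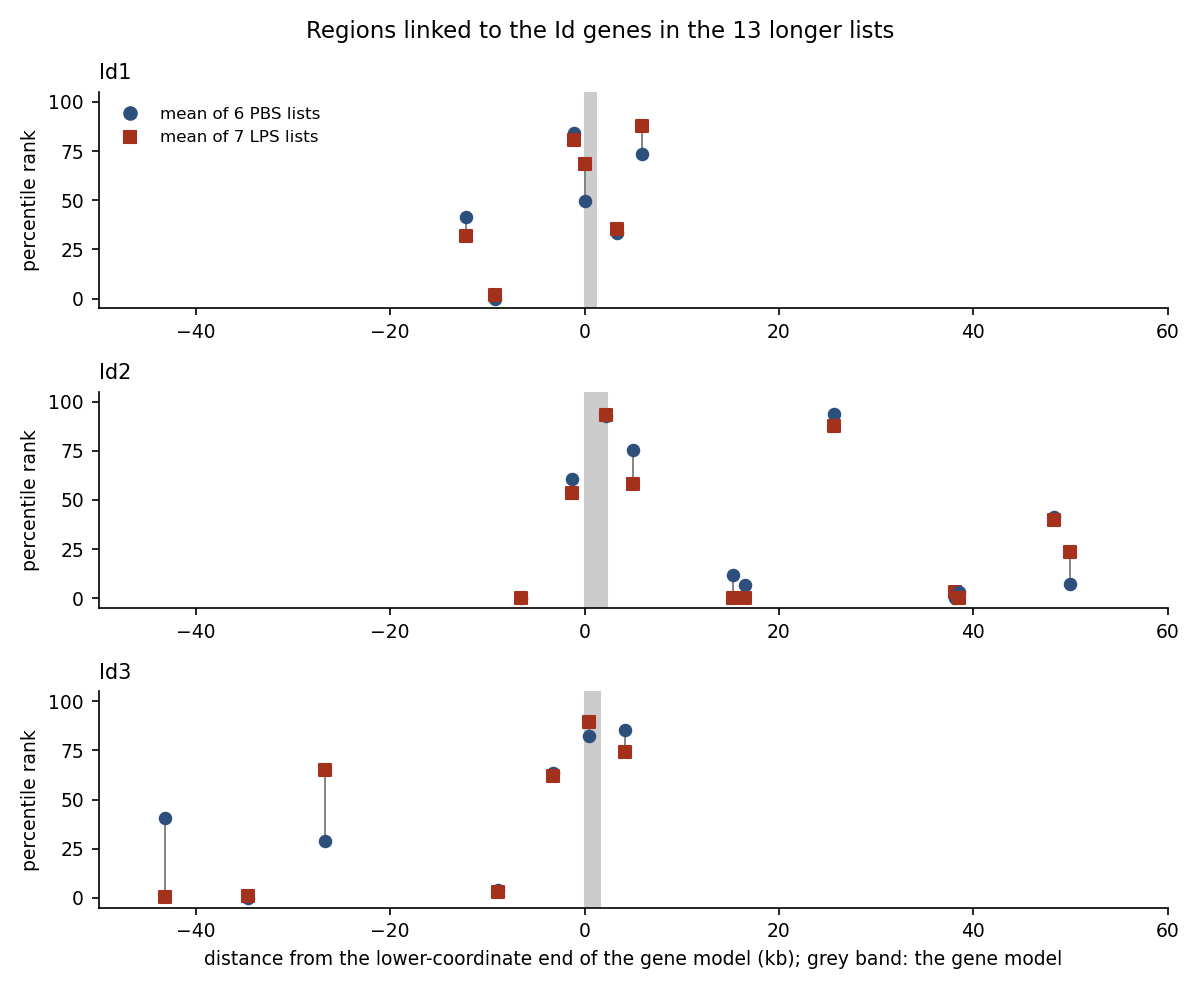
Mean percentile rank (y axis; 100 is the strongest of 59609 peaks) of every region linked to Id1, Id2 and Id3 against its distance from the lower-coordinate end of the gene model in kb (x axis), as the mean of 6 PBS lists (circles) and of 7 LPS lists (squares). The 2 distal Id3 regions at -26.7 and -43.1 kb move in opposite directions, while the Id2 end at 2.24 kb keeps its place.

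The Id2 region 22.9 kb upstream was at 92.2 to 94.7 after PBS and 79.6 to 92.1 after LPS and fell by 6.24 ± 1.63 in the averaged contrast (adjusted p = 0.0112). The call was lost without naive LPS 2 (adjusted p = 0.102), the list at 79.6, which left a difference of -3.13. Inside Tcf12, the region 245 kb from the lower end of the model was at 42.3 to 57.5 after PBS and 45.6 to 75.8 after LPS. It rose by 19.6 ± 4.92 (adjusted p = 0.00873). That call was lost without naive LPS 2 (0.0563) and when ranking by fold (0.0972). It was also lost with the replicate number as a block (0.0557) and with Y peaks as a covariate (0.0532). The region inside Tcf12 called in the 16 lists differed by 7.5 here (adjusted p = 0.0646).

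The 4 Tcf4 regions that fell in the averaged contrast all lay inside the gene and were weak. The region 332 kb from the lower end was at 35.5, 34.6 and 32.6 in naive PBS lists and 0 and 0 in naive LPS lists. In AF9-experienced mice it was at 44.0, 42.3 and 40.7 after PBS and at 8.18, 31.6, 6.70, 8.74 and 0 after LPS, so the treatments did not overlap. It fell by 31.3 ± 8.44 in AF9-experienced mice (adjusted p = 0.0251) and by 32.8 ± 6.76 averaged over both (0.00244). Leaving out AF9-experienced PBS 2, 3 or 4 ended the AF9-experienced call (adjusted p up to 0.0959). The regions 53.1, 165 and 194 kb from the lower end fell by 28.6, 22.5 and 15.8 points in the averaged contrast (adjusted p = 0.00815, 0.0149 and 0.0475). All 3 met the filter only through PBS lists: 6, 4 and 6 PBS lists were above 0, against 1, 0 and 2 LPS lists, and their p-values are conditioned on that. The last of these calls was lost in 10 of 13 fits that left out 1 list, all but those without naive PBS 2, AF9-experienced PBS 4 and AF9-experienced LPS 3 (adjusted p up to 0.124). That at 165 kb was at 0 in all LPS lists and in 2 of 3 naive PBS lists; it fell by 33.1 ± 7.72 in AF9-experienced mice (adjusted p = 0.0118), a call lost without AF9-experienced PBS 3 (0.0551), and its averaged call was lost without naive LPS 1 or 2 (up to 0.0553). The Tcf4 end stayed at 95.6 to 99.0 in all 13 lists.

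A weak region at Tcf3 reached the threshold in AF9-experienced mice. At chr10:80442944-80443362, 9.0 kb upstream, it was at 0 in all PBS lists and in both naive LPS lists, and at 13.3, 14.96, 35.6, 42.7 and 37.6 in AF9-experienced LPS lists. The difference in that background was 28.8 ± 7.60 (adjusted p = 0.0223). The region met the filter only through these 5 lists, so the p-value is conditioned on the difference it tests and the values are a description. A zero here is either a peak ranked below the 59609 strongest or no peak at all. The full lists held a peak there in 1 of 4 PBS lists (fold 3.76) and 1 of 3 LPS lists (2.71) of naive mice. In AF9-experienced mice they held one in 2 of 4 after PBS (3.87 to 4.53) and 5 of 5 after LPS (3.4 to 4.34). The call ended when AF9-experienced PBS 2, 3 or 4 was left out (adjusted p up to 0.0951) and when ranking by fold (0.121). With median fold as a covariate the difference was 0.752 (adjusted p = 0.990).

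**Figure D5:**
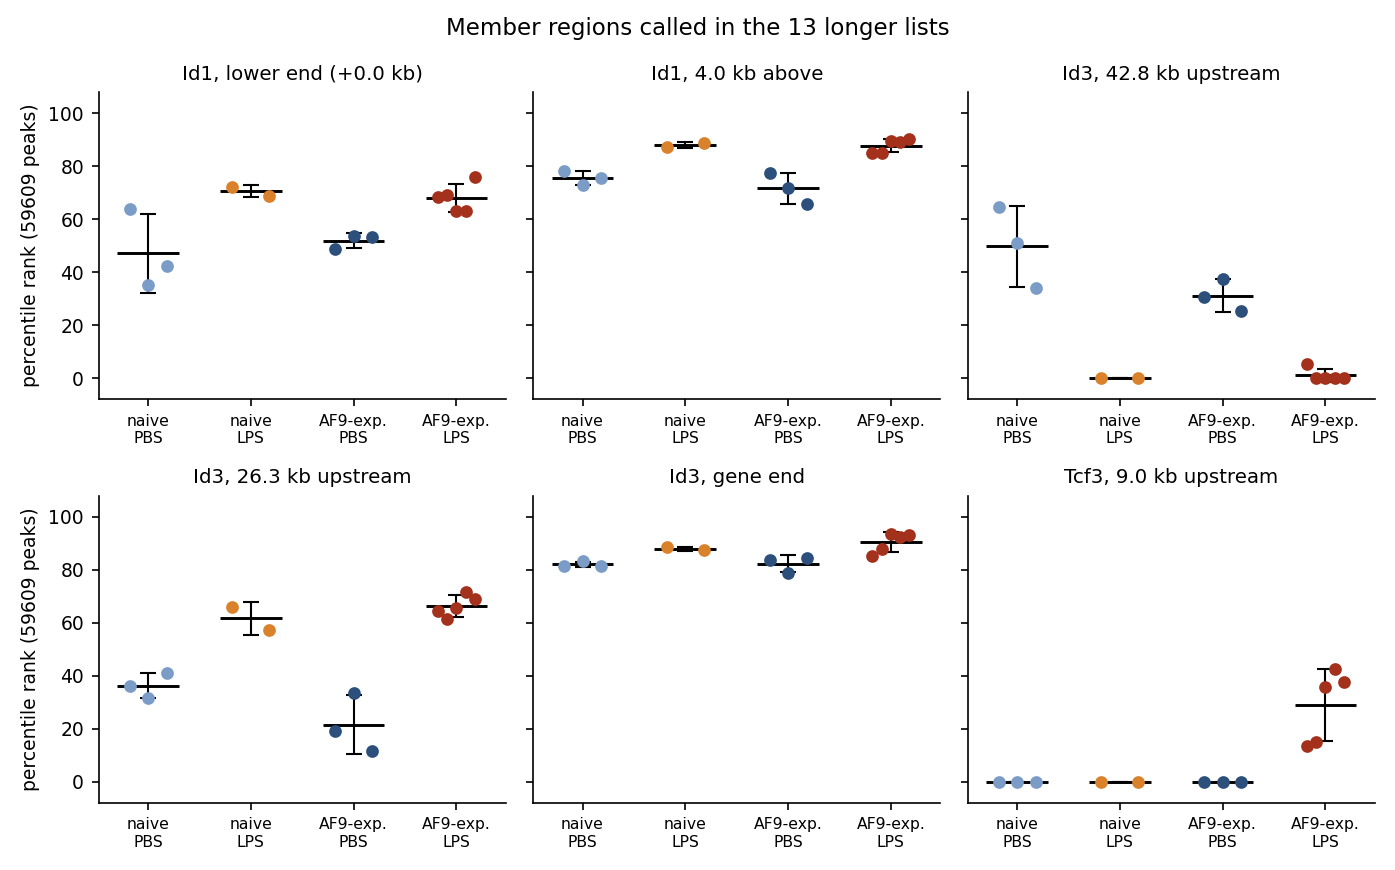
Percentile rank (y axis; 100 is the strongest of 59609 peaks, 0 is no peak among them) of 6 regions called in the 13 longer lists, by group (x axis; naive mice with 3 PBS and 2 LPS lists, AF9-experienced mice with 3 and 5). Points are lists, bars are the mean and SD; the Id3 region 26.3 kb upstream lies at 11.6 to 40.9 after PBS and 57.3 to 71.7 after LPS, and the Id3 region 42.8 kb upstream at 25.5 to 64.4 after PBS and 0 to 5.29 after LPS.

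The AF9 comparisons of the 13 lists gave 0 calls among the 56 regions, as did the interaction. All regions together had 0.0% called after PBS, 0.0129% after LPS, 0.0% averaged over treatments and 0.0% for the interaction. At an unadjusted p under 0.05 (limma), the members numbered 5 after PBS (8.93%, against 3.11% of all regions), 3 after LPS (5.36% against 6.12%), 3 averaged over treatments (5.36% against 4.11%) and 2 for the interaction (3.57% against 3.93%). These shares rest on 2 to 5 regions.

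Genes that act with or under this circuit were described in the 16 lists in the same way. Of 14 partner and cofactor genes of E proteins, 7 had a tested region, 21 regions in all. In the averaged LPS contrast 1 was called higher and 2 lower, 4.76% and 9.52%, beside the 7.17% and 5.45% of all regions. A region inside Cbfa2t3, a corepressor that binds E proteins, fell by 32.0 ± 5.75 points (adjusted p = 0.000713), from 74.1 ± 5.49 (SD, n = 4) to 29.9 ± 23.0 (n = 3) in naive and from 69.8 ± 4.28 (n = 4) to 49.955 ± 14.3 (n = 5) in AF9-experienced mice. One 5.9 kb from Tcf15, a basic helix-loop-helix gene, fell by 28.2 ± 6.94 (0.00906), and one 3.4 kb from Gata2, a stem cell factor found in complexes with E proteins, rose by 20.6 ± 5.06 (0.00908).

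Of 20 lymphoid and other genes known to respond to E proteins, 11 had a tested region, 32 regions in all, with 2 higher and 3 lower in the averaged contrast (6.25% and 9.38%). The regions moved both ways at Socs3, a cytokine feedback inhibitor. A region 5.7 kb from the gene fell by 24.6 ± 5.16 (adjusted p = 0.00283) and was at 0 in all 8 LPS lists, so that it met the filter only through 7 PBS lists. In the 13 lists its LPS means were 61.5 and 56.0, against 79.2 and 76.4 after PBS. A region over the gene rose by 12.3 ± 2.86 (0.00623). The region 1.0 kb from Igll1, a surrogate light chain gene of early B cells, rose by 26.8 ± 5.78 (adjusted p = 0.00349), and a region of Notch1, the receptor that starts T cell development, fell by 14.4 ± 3.85 (0.0157). Of 12 genes that carry BMP and TGF-beta signals to the Id genes, 11 had a tested region, 34 in all, with 1 higher and 2 lower (2.94% and 5.88%). One 23.0 kb from Smad6, an inhibitor of BMP signals, rose by 20.2 ± 5.63 (adjusted p = 0.0203). It was at 0 in all 8 PBS lists and met the filter only through 6 LPS lists; in the 13 lists its PBS means were 45.8 and 49.4, against 73.8 and 75.7 after LPS. One 14.0 kb from Smad7, an inhibitor of TGF-beta signals, fell by 28.4 ± 8.09 (0.0230), and one at Tgfbr2, a TGF-beta receptor, fell by 13.2 ± 4.35 (0.0482). No region of these 3 lists was called in the AF9 contrasts or the interaction of either view.

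The regions whose values followed the Id2 region 22.9 kb upstream most closely over the 16 lists were linked to Dclre1a (Pearson r = 0.906), Rack1 (0.903), Ak1 (0.902), Abca4 (0.898) and Gm5544 (0.894). They were picked for this likeness from all tested regions, and the lists share depth and treatment, so the values are a description.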

How the data were processed

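Per the submitters' processing notes, reads were handled with FastQC, Trim Galore, BWA, Picard and MACS3 on GRCm38; versions and read filters are not given in the sources used here, and the labels mention an Omni-ATAC library protocol as well as Chromium chemistry. The labels list 32 samples, 2 technical libraries for each of 16 biological replicates, with 1 deposited list each; how the 2 were joined is not stated. The authors deposited, per peak, a fold enrichment (a ratio to the library's own background), a -log10 p and a -log10 q. These values served to order and filter the peaks of 1 list. Their ranges are also given by treatment as a description, and median fold per list was a covariate in some alternatives. The values are not scaled between libraries, and no test compared peak heights between lists. Depth is unknown, so no counting interval was given.

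Lists were shortened to 19100 peaks (59609 without the 3 shortest), merged where they overlapped, and linked to 21887 protein-coding RefSeq models (GRCm38.p6), which carry no strand. Upstream and downstream were taken from the strand in RefSeq's promoter table, which was found for Id2, Id3, Tcf3 and Tcf12; beside Id1 and Tcf4, above and below mean higher and lower coordinates. Percentile ranks were fitted across all regions with limma 3.58.1 in R 4.3.3 (empirical Bayes with trend and robust options, 1 mean per group), and p-values were adjusted by Benjamini-Hochberg over all regions of a contrast; a call is an adjusted p under 0.05. The method was tested on simulated data. P-values measure the spread between lists labelled as biological replicates. A rank can move because other regions move. The members and lists were chosen with earlier results of these data known. Regions described in full were the region of highest mean rank of each gene, every called region and the region with the smallest p in the averaged LPS contrast; genes of other lists were named only where a region was called, at most 4 per list and contrast by smallest p, and the 5 regions most like the leading Id2 region by Pearson r. The 13-list view was an alternative planned from the start, and the alternatives run within it were added after seeing the data.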

Additional observations from a re-analysis of the deposited data

Results flagged for a closer look

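In groups of 4 or 5 lists, 4 values stood apart from the others of their group among the 24 groups examined at the regions described in full; chance flags about 1 in 20 groups. At the Tcf3 end, naive PBS 2 was at 90.9, and the other naive PBS lists were at 84.5 to 85.0. At the Tcf12 end, the same list was at 69.7, and the others were at 61.3 to 62.3. At the region inside Tcf12 called in the averaged LPS contrast, naive PBS 4 was at 4.17 and AF9-experienced PBS 2 at 8.25, where the other PBS lists of each group were at 0. Those 0s are peaks ranked below the 19100 strongest or no peak at all, so any value above 0 stands apart there. The chance rate of 1 in 20 does not apply to these last 2.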

How the results depend on the processing

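Ranks give order within a list, and depth is unknown, so a peak missing from a shallow list cannot be told apart from a closed region. Member regions called in the 16 lists numbered 2 for LPS in naive mice, 2 in AF9-experienced mice and 3 averaged over both. In that order they were 0, 0 and 6 when ranking by fold, and 0, 0 and 0 with percentiles of the full lists or with presence in the full lists. Library weights gave 4, 4 and 8. With 9550 peaks per list, the member counts for naive and AF9-experienced mice were 0 and 0, beside 52 and 195 among all regions. With presence counted only from a -log10 q of 5 upward, they were 0 and 0, beside 3 and 4. The called Id1 and Id2 regions and the Tcf12 end had a peak in all 16 full lists. Their presence difference was 0.0, also from a -log10 q of 5 upward, so fits of presence could not keep these calls. Without the 3 shortest lists, 7 member regions were called in AF9-experienced mice and 11 averaged over both, beside 7327 and 15351 among all regions. For AF9-experienced mice the member count was 1 with 500 bp summit windows, with a peak in at least 1 list, or with empirical Bayes without its trend and robust options, and 5 with Y peaks as a covariate. All regions had 1167, 972, 1310 and 1318 calls in these alternatives, in the same order. For naive mice the member count was 0 when only that contrast's groups were fitted, beside 248 among all regions. It was 1 when links were limited to 10 kb, beside 758. Leaving out 1 list at a time gave 0 to 3, 1 to 3 and 2 to 4 member calls. Among all regions it gave 343 to 1132, 621 to 1645 and 2187 to 3781. The member counts for the AF9 contrasts and the interaction were 0 in each alternative run, in the 16 and in the 13 lists. Among all regions these contrasts reached at most 28 calls in the 16 lists and 139 in the 13.

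In the 13 longer lists, the alternatives were chosen after seeing the data. The member counts were 3, 7 and 11 of 56, beside 4714, 7327 and 15351 of all 70017 regions. They were 8, 17 and 22 when ranking by fold, beside 8970, 19701 and 25806 among all regions. Library weights gave 9 for naive mice and 17 averaged over both, beside 7513 and 20150. With median fold as a covariate the member counts were 0 in AF9-experienced mice and 1 averaged over both, beside 0 and 996. Leaving out 1 list at a time gave 0 to 6, 2 to 8 and 9 to 14. The naive difference at the region 0.7 kb below Id1 turned from -9.87 to 0.769 when ranking by fold. Over the member regions called, 617 fits under an alternative gave 478 that held the call, 138 that lost it and 1 reversal. The 138 include the fits of presence that could not keep a call.

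The replicate numbers did not pair the samples: deviations from the group means correlated on average at -0.0354 for lists with the same number (-0.215 to 0.231, 21 pairs) and at 0.0146 for others. With the replicate number as a replicate block, the member counts were 1 in naive and 1 in AF9-experienced mice in the 16 lists, and 1 in naive mice in the 13. Among all regions these counts were 505, 890 and 1645.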
